A study of Mus musculus with 10 samples.

Results

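Interferon-stimulated genes were followed in C2C12 cells, a mouse myoblast line, transfected with a synthetic copy of the microRNA miR-142-3p (the mimic) or with scrambled RNA. The group holds 44 named genes, found by their gene name among the non-control probes of the array, and 43 of them had a probe, of 34607 genes with a probe in all. Of these 43 genes, 27 gave enough signal to be tested among 13677 tested genes. Ifi205 was not analysed here. The mimic group received miR-142-3p mimic and the scramble group a scrambled sequence, both at 150 nM with a cationic lipid reagent, and RNA was taken after 72 hours. About 60% of the cells were estimated to be transfected, so each sample mixes transfected and untransfected cells. Cells that received no RNA or no lipid were not analysed here, and the lipid is common to both groups. Samples number 6 for the mimic and 4 for the scramble, described as independent transfections, and all 4 scramble titles carry a remark about a re-analysis that the sources used here do not explain. The file headers place the 10 scans on 1 slide with 5 arrays, and each array was scanned on 2 days. Both scans of an array were averaged, which gave n = 3 mimic arrays and n = 2 scramble arrays. The headers do not name the culture behind an array, so the p-values reflect only how far these 5 arrays spread, and that spread may be technical.

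Type I interferons are secreted proteins that cells make after sensing viral nucleic acid. They bind the receptor chains Ifnar1 and Ifnar2, and the kinases Jak1 and Tyk2 then activate transcription factors, among them Stat2, which works with Irf9 in the complex ISGF3. ISGF3 binds the interferon-stimulated response element in gene promoters, and the proteins made from these genes block viral entry, translation, replication and release. Interferon gamma acts through its own receptor and induces an overlapping set that is rich in guanylate-binding proteins and immunity-related GTPases. Fibroblasts and myoblasts express both receptors and can respond to either signal.

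The miRNA that the mimic stands for is shown first, because it is what differed between the groups. RefSeq lists mmu-miR-142a-3p on the plus strand at chr11:87756903-87756925 in GRCm38.p6, and its 23 bases read, with the seed (bases 2 to 8) in capitals, as follows. The letters of the purchased mimic itself were not used here.
mmu-miR-142a-3p: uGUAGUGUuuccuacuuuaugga

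Promoters are shown for 5 members that behaved differently, in order to set the letters of the response element beside the signal. Isg15 and Gbp2 rose, Ifit1 was near the detection limit, and Ifitm1 rose while its chromosomal neighbour Ifitm2 did not pass the test. Each line gives the 250 bases before the RefSeq start in the direction of the gene. Capitals mark matches to the core of the interferon-stimulated response element, searched on both strands with overlapping matches allowed. The windows lie in GRCm38.p6 at chr4:156200819-156201068 on the minus strand for Isg15, at chr3:142620413-142620662 on the plus strand for Gbp2, and at chr19:34640639-34640888 on the plus strand for Ifit1. The window of Ifitm1 is at chr7:140967826-140968075 on the plus strand, and that of Ifitm2 is at chr7:140955962-140956211 on the minus strand.
Isg15: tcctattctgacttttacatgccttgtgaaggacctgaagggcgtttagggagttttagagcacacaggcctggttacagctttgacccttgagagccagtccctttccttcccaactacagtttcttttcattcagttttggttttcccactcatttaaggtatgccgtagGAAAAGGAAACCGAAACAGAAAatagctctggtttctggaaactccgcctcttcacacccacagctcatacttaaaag
Gbp2: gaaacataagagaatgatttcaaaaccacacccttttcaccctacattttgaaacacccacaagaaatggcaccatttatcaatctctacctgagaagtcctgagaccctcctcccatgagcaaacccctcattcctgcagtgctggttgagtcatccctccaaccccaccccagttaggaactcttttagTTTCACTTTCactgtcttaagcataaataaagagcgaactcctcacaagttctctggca
Ifit1: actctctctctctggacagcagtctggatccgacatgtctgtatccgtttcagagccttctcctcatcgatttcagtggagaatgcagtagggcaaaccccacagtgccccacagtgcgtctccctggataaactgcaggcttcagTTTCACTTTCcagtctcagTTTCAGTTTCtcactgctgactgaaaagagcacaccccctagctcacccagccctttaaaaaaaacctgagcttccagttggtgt
Ifitm1: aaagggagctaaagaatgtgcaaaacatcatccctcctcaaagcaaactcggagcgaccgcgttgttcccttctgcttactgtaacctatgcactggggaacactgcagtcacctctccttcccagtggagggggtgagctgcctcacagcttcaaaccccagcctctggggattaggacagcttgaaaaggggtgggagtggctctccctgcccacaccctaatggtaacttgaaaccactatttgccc
Ifitm2: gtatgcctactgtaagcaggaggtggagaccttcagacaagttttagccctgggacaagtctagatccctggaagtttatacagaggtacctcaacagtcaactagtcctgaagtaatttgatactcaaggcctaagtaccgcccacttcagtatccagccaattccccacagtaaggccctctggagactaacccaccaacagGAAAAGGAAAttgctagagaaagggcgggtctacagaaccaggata

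The Isg15 window held 3 overlapping matches that began 78 to 66 bases before the start. Ifit1 held 2 matches, which began 104 and 85 bases before the start. Gbp2 held 1 match 59 bases before the start and Ifitm2 held 1 match 46 bases before it, while the Ifitm1 window held none. In windows reaching from 250 bases before to 50 after the start, 19 of the 34 members with a RefSeq promoter entry held the motif (55.9%), against 1079 of 27025 genes in the table (3.99%). The share was 44.4% (4 of 9) among members called higher, 57.1% (8 of 14) among members tested and not called, and 60% (6 of 10) among members with too little signal to test. These shares rest on 9 to 14 genes each, and that of the genes that rose was not the highest. The gamma-activated sequence TTCNNNGAA, whose letters read the same on both strands, occurred in 11 of 34 members (32.4%), against 9.55% of all genes. Oas2, Mx1, Mx2, Usp18, Rtp4, Dhx58, Zbp1, Ifi27, Ifi204 and Parp14 had no entry.

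Members were compared between mimic and scramble on a log2 scale. On it, 0 is the 75th percentile, taken within each scan, of the probes detected on all 10 scans. A probe counted as detected on a scan when the scanner software marked it well above background. A gene was tested when its probe was detected on at least 4 of the 10 scans. Of the 27 tested members 11 were higher with the mimic and 0 were lower (limma, adjusted p below 0.05). Over all tested genes 9.78% were called, 4.92% as higher and 4.85% as lower. Without adjustment 15 of the 27 had p below 0.05, as did 27.1% of all tested genes. The median log2 difference over the 27 members was 0.83, against −0.04 over all 13677 genes, and 26 of the 27 differences were positive. In 19 of the 27 tested members every mimic array was above both scramble arrays, where 20.9% of all tested genes were. None of the 27 had every mimic array below both scramble arrays, where 24.3% of all tested genes did. Zbp1, which was not tested, did so at signals near background. In the other 8 tested members the groups overlapped. A member detected mainly with the mimic entered the test through that group, and in the narrower set of genes detected on all 10 scans 8 of 22 members were higher, against 5.09% of 10336 genes, and the member median was 0.46. It was 0.48 with another background correction (normexp) and 0.38 over all 43 members without the filter.

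**Figure D1:**
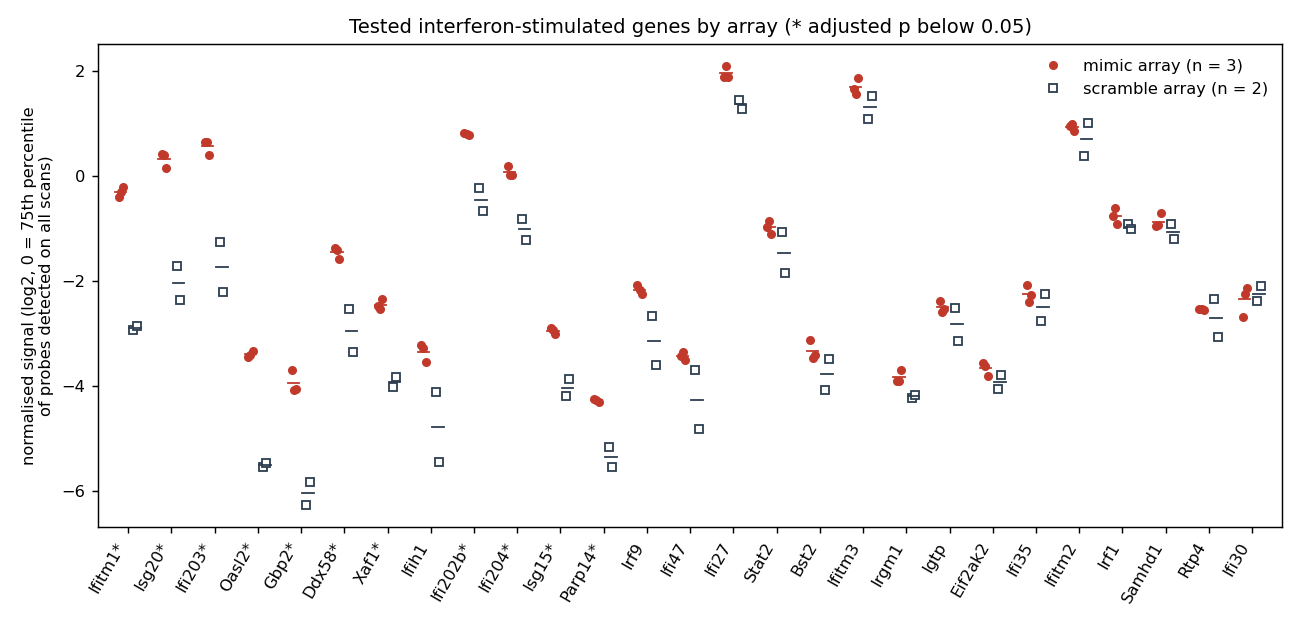
Normalised log2 signal of the 27 tested members on each array, with mimic arrays as red circles (n = 3) and scramble arrays as open squares (n = 2), short lines at the group means and members in order of the log2 difference. The mimic circles lie close together and above the squares for the 11 starred members, and the groups overlap for members on the right such as Rtp4 and Ifi30.

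Among the IFITM proteins, small membrane proteins that block the fusion of viruses with the cell, Ifitm1 rose and its relatives did not pass the test. The normalised signal of Ifitm1 was −0.41, −0.30 and −0.21 on the mimic arrays, against −2.93 and −2.86 on the scramble arrays. The groups were far apart and each was tight. The log2 difference was 2.59 ± 0.16 (SE), or 6.01-fold, the largest among the 8 called members that were detected on all scans (limma, adjusted p = 0.000326). The Ifitm1 probe maps to bases 148155659 to 148155718 of chromosome 7 in mm9, the build of the file headers, and a second probe that shares 59 of its bases gave a log2 difference of 2.61. Ifitm2 measured 0.94, 0.98 and 0.86 with the mimic, against 0.38 and 1.01 with the scramble, a log2 difference of 0.23 (limma, adjusted p = 0.543). Ifitm3 measured 1.66, 1.55 and 1.87 with the mimic, against 1.08 and 1.53 with the scramble, a log2 difference of 0.38 (limma, adjusted p = 0.282). Scramble array 2 lay above all 3 mimic arrays for Ifitm2 and just below them for Ifitm3. Within each array, the log2 signal of Ifitm1 minus that of Ifitm2 was higher with the mimic by 2.36, and that of Ifitm1 minus Ifitm3 by 2.20, and no mimic array overlapped a scramble array in either (exact permutation test, two-sided, p = 0.1 for each, the smallest that 3 against 2 arrays allow).

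Of the other direct antiviral effectors, Isg20, an exonuclease that degrades single-stranded RNA, rose 5.17-fold. Its signal was 0.43, 0.41 and 0.16 on the mimic arrays, against −1.72 and −2.36 on the scramble arrays, a log2 difference of 2.37 ± 0.23 (SE; limma, adjusted p = 0.00142). The probe is on chromosome 7 at 86065136 to 86065195 in mm9, and a second Isg20 probe gave 1.83. The remaining tested effectors did not pass the test. The log2 difference of Bst2 (tetherin, which holds budding virus at the cell surface) was 0.44, that of Eif2ak2 (the RNA-activated kinase PKR, which stops translation) 0.27, that of Samhd1 (which depletes nucleotides) 0.19, and that of Rtp4 0.16, with adjusted p between 0.272 and 0.705 in limma. Another probe of Samhd1 gave 0.69, also short of the threshold. Rsad2 (viperin), an enzyme that makes a chain-terminating nucleotide, was detected on no scan.

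The p200 family, nuclear proteins encoded in a cluster on chromosome 1 of which several bind DNA, was higher in all 3 members measured. Ifi203 measured 0.65, 0.64 and 0.39 with the mimic, against −1.26 and −2.21 with the scramble, a log2 difference of 2.30 ± 0.29 (SE; 4.92-fold; limma, adjusted p = 0.00451). The scramble arrays were 0.95 apart, but both lay well below the mimic arrays. Its probe is at 175850536 to 175850595 on chromosome 1 in mm9, a further probe gave a log2 difference of 1.47. Another, detected on all 6 mimic scans and no scramble scan, was at least 2.79-fold higher, and the fourth was detected on no scan. Ifi202b measured 0.82, 0.80 and 0.78 with the mimic, against −0.24 and −0.67 with the scramble, a log2 difference of 1.25 ± 0.19 (SE; 2.38-fold; limma, adjusted p = 0.00935). Ifi204 measured 0.18, 0.01 and 0.01 with the mimic, against −0.82 and −1.21 with the scramble, a log2 difference of 1.09 ± 0.19 (SE; 2.12-fold; limma, adjusted p = 0.0164). The second probe gave 0.97 for Ifi202b and 1.11 for Ifi204. The probes of Ifi202b and Ifi204 lie at 175892789 to 175892848 and at 175677647 to 175677706 on the same chromosome. Whether these related transcripts bind each other's probes was not tested. The call for Ifi202b was lost without mimic array 1 (limma, adjusted p = 0.0543), and that for Ifi204 without any 1 of the mimic arrays (adjusted p of 0.0887, 0.0572 and 0.0701 without arrays 1, 2 and 3).

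Among the sensors of foreign RNA and DNA, Ddx58 (RIG-I, which detects short double-stranded RNA with triphosphate ends) rose 2.83-fold. Its signal was −1.37, −1.41 and −1.58 with the mimic, against −2.55 and −3.37 with the scramble, a log2 difference of 1.5 ± 0.26 (SE; limma, adjusted p = 0.0167). The probe is on chromosome 4 at 40151893 to 40151952 in mm9, and the other Ddx58 probe was detected on no scan. The call was lost without any 1 mimic array (limma, adjusted p of 0.0708, 0.0556 and 0.057 without arrays 1, 2 and 3). Ifih1 (MDA5, which detects long double-stranded RNA) measured −3.23, −3.28 and −3.55 with the mimic, against −4.13 and −5.45 with the scramble. The groups did not overlap, but the scramble arrays differed by more than 1 log2 unit, and the probe was detected on 2 of 4 scramble scans. The log2 difference of 1.43 ± 0.37 (SE) did not pass the test (limma, adjusted p = 0.0603), and it was 2.09 (adjusted p = 0.00427) without scramble array 1 and 0.77 (adjusted p = 0.0827) without scramble array 2. Zbp1, a sensor of Z-form nucleic acid, was detected on 1 scramble scan and no mimic scan. It measured −6.25, −5.74 and −6.30 with the mimic, against −4.58 and −5.00 with the scramble, so both groups were near background and no fold is given. In a fit of all genes without the detection filter its log2 difference was −1.30 (limma, adjusted p = 0.142). Dhx58 (LGP2, which modulates both RNA helicase sensors) was detected on no scan.

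Of the oligoadenylate synthetases, enzymes that make the messenger that activates RNase L, Oasl2 was the only 1 of 5 members with enough signal to test. It measured −3.45, −3.41 and −3.33 with the mimic, against −5.55 and −5.47 with the scramble. The probe, on chromosome 5 at 115362168 to 115362227 in mm9, was detected on all 6 mimic scans and on no scramble scan, so only a bound is given, and Oasl2 was at least 2.99-fold higher with the mimic (limma, adjusted p = 0.000541). A bound sets the mimic mean against, for each scramble array, the higher of the probe's own signal and the lowest signal that was well above background there. Each bound holds for the processing as reported here, not for every setting tried. The lowest log2 difference over the settings was 1.09 for Oasl2, 0.80 for Gbp2 and 0.39 for Parp14. These lie below the bounds, which are 1.58, 1.03 and 0.70 on the log2 scale. A p-value beside a bound, here and below, is that of the fit on the signals as measured. It does not test the bound, and such genes entered the test through their mimic scans alone. Oas1a, a synthetase with catalytic activity, was detected on 2 mimic scans and no scramble scan, and measured −5.04, −5.49 and −4.81 with the mimic, against −6.73 and −6.56 with the scramble. Oasl1, known in mouse as a translational repressor of Irf7, was detected on 1 mimic scan, and measured −5.54, −5.04 and −5.58 with the mimic, against −7.41 and −7.02 with the scramble. Every mimic array lay above both scramble arrays for these 2 genes, at signals near the detection limit. In the fit without the filter, where 1.31% of 34607 genes were called and 0.578% were higher, Oasl1 had a log2 difference of 1.83 (limma, adjusted p = 0.0362) and Oas1a of 1.53 (limma, adjusted p = 0.0759). Oas2 and Oas3 were detected on no scan.

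Among interferon-inducible GTPases, Gbp2, a guanylate-binding protein that attacks the vacuoles of intracellular pathogens, rose. Its signal was −3.70, −4.08 and −4.06 with the mimic, against −6.27 and −5.83 with the scramble. The probe, on chromosome 3 at 142300719 to 142300778 in mm9, was detected on 5 of 6 mimic scans and no scramble scan, and Gbp2 was at least 2.05-fold higher with the mimic (limma, adjusted p = 0.00184). The immunity-related GTPases did not pass the test. Ifi47 measured −3.43, −3.35 and −3.52 with the mimic, against −3.70 and −4.83 with the scramble, a log2 difference of 0.83 that rested largely on scramble array 2 (limma, adjusted p = 0.158; 1.40 and adjusted p = 0.00617 without scramble array 1; 0.27 without scramble array 2). Irgm1 had a log2 difference of 0.36 and Igtp one of 0.32 (limma, adjusted p = 0.221 and 0.407). Gbp3 was detected on no scan. The Mx GTPases, which trap viral nucleocapsids, could not be tested: Mx1 was detected on no scan and Mx2 on 1 mimic scan.

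In the ISG15 system, Isg15, a ubiquitin-like modifier that is joined to newly made proteins, rose 2.12-fold. Its signal was −2.90, −2.94 and −3.02 with the mimic, against −4.20 and −3.87 with the scramble, a log2 difference of 1.08 ± 0.18 (SE; limma, adjusted p = 0.0128). The probe is on chromosome 4 at 155573649 to 155573708 in mm9, and a second Isg15 probe was detected on no scan. The call was lost without any 1 mimic array (limma, adjusted p of 0.0758, 0.0552 and 0.0586 without arrays 1, 2 and 3). Usp18, the protease that removes Isg15 and also damps receptor signalling, was detected on both scans of mimic array 3 and nowhere else. It measured −6.87, −6.59 and −3.59 with the mimic, against −6.85 and −6.62 with the scramble, so that mimic array 3 stood apart from the 4 other arrays by about 3 log2 units.

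Other effectors with less defined roles included Xaf1 and Parp14, which rose. Xaf1, an antagonist of the apoptosis inhibitor XIAP, measured −2.48, −2.53 and −2.35 with the mimic, against −4.03 and −3.84 with the scramble, a log2 difference of 1.48 ± 0.17 (SE; 2.78-fold; limma, adjusted p = 0.00273). Its probe is on chromosome 11 at 72122169 to 72122228 in mm9, and a second Xaf1 probe was detected on no scan. Parp14, an ADP-ribosyltransferase, measured −4.25, −4.28 and −4.31 with the mimic, against −5.17 and −5.54 with the scramble. It was detected on 5 mimic scans and no scramble scan, with its probe on chromosome 16 at 35832992 to 35833051 in mm9, and was at least 1.62-fold higher with the mimic (limma, adjusted p = 0.0142). This call was lost without any 1 mimic array (limma, adjusted p of 0.0781, 0.0577 and 0.0678 without arrays 1, 2 and 3). Ifi27, a mitochondrial protein gene, measured 1.88, 2.10 and 1.88 with the mimic, against 1.45 and 1.28 with the scramble, a log2 difference of 0.58 (limma, adjusted p = 0.0828; 0.0403 without scramble array 1). Ifi35 had a log2 difference of 0.25 and Ifi30, a lysosomal thiol reductase, of −0.11, the only negative value among the 27 (limma, adjusted p = 0.508 and 0.782). The sign of Ifi30 turned, to 0.023 and 0.10, when arrays were scaled on all probes or on the array median. Ifi44 was detected on no scan.

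The IFIT proteins, which bind viral RNA that lacks host cap methylation and are among the genes most readily induced by interferon, were at or near background in both groups. Ifit1 was detected on 1 mimic scan and measured −5.86, −6.94 and −7.75 with the mimic, against −7.37 and −6.91 with the scramble. Ifit2 was detected on 1 scramble scan and measured −6.11, −6.23 and −6.08 with the mimic, against −5.26 and −6.48 with the scramble. Ifit3 was detected on no scan. The groups overlapped in Ifit1 and Ifit2, and none of the 3 genes was tested. In all, 9 members were detected on no scan, namely Ifit3, Oas2, Oas3, Mx1, Irf7, Rsad2, Dhx58, Gbp3 and Ifi44. Their array signals ran over −7.75 to −6.12 with the mimic and over −7.36 to −5.52 with the scramble, below or within the lowest signals called well above background on the arrays (−5.78 to −4.70). A difference in these genes was not detectable at these signals.

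**Figure D2:**
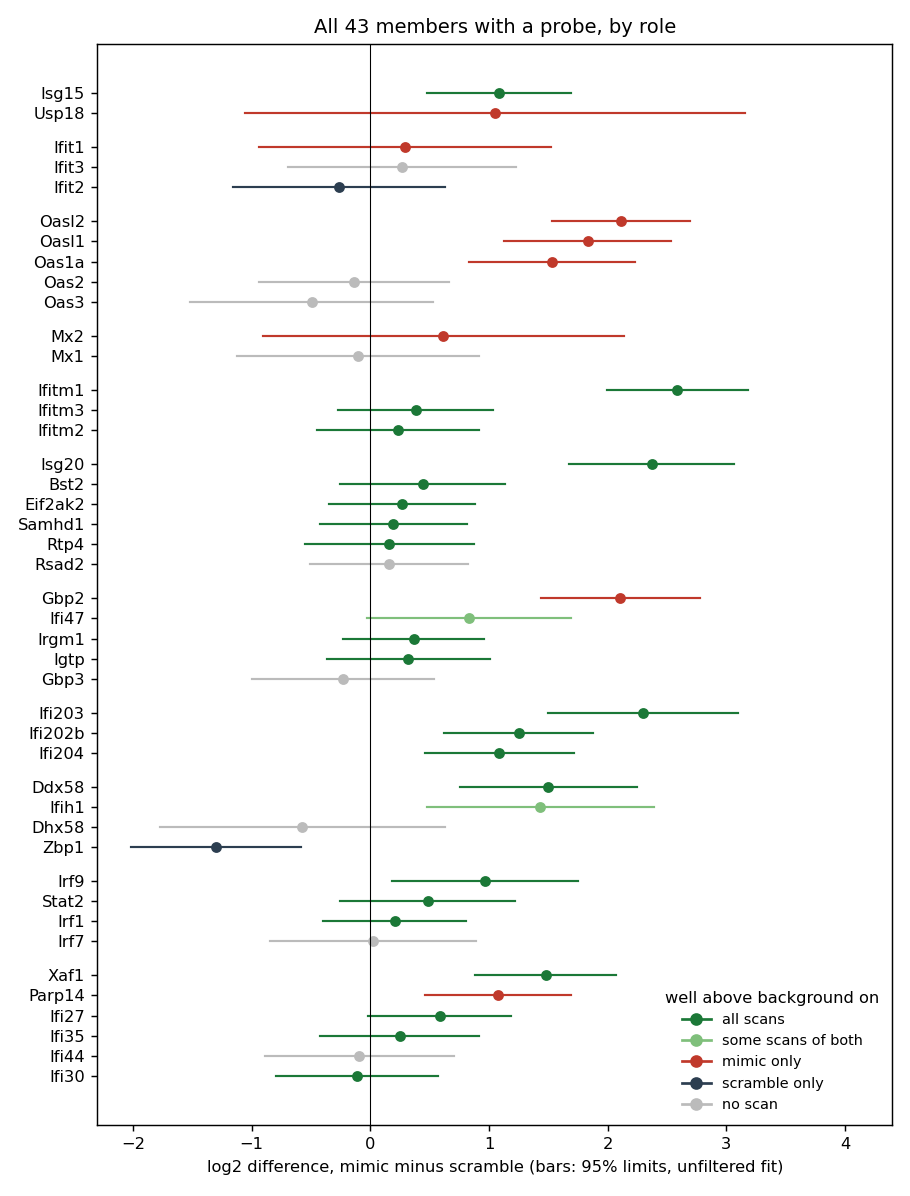
Log2 difference of mimic minus scramble, with 95% confidence limits from the fit without the detection filter, for the 43 members with a probe, grouped by role and coloured by the scans on which the probe was well above background. The p200 genes, Ifitm1, Isg20, Oasl2 and Gbp2 lie right of 0 with their limits, and the grey members, detected on no scan, have wide limits that include 0.

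Among the transcription factors, 0 of 3 tested genes passed the test (limma; 1 of 3 at unadjusted p below 0.05). Over all tested genes 9.78% passed, and 27.1% had an unadjusted p below 0.05. Irf9, the DNA-binding subunit of ISGF3, measured −2.09, −2.18 and −2.26 with the mimic, against −2.67 and −3.61 with the scramble. The groups did not overlap, and the log2 difference was 0.96 ± 0.28 (SE; limma, adjusted p = 0.0814), with 1.43 (adjusted p = 0.00598) without scramble array 1 and 0.50 (adjusted p = 0.139) without scramble array 2. Stat2, its partner in ISGF3, had a log2 difference of 0.48 with 95% limits of −0.13 to 1.10 (limma, adjusted p = 0.278; 0.88 and adjusted p = 0.0201 without scramble array 1; 0.087 and adjusted p = 0.806 without scramble array 2). Irf1, an activator that interferon gamma induces strongly, had a log2 difference of 0.20 with limits of −0.21 to 0.62 (limma, adjusted p = 0.492). Irf7, which amplifies interferon alpha production, was detected on no scan.

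Among the called members the larger spread lay mostly in the scramble group. The SD between the 2 scramble arrays exceeded that between the 3 mimic arrays in 9 of the 11 called members, with SDs of 0.0223 to 0.215 with the mimic and 0.0542 to 0.672 with the scramble. The share over all tested genes was not taken, so whether this is particular to the members was not tested. The arrays of each group lie in both rows of the slide, so the SD of either group includes any difference between rows. The arrays lie in 2 rows of the slide, each holding both groups but only 1 scramble array. The log2 differences of the called members were 0.89 to 2.63 within row 1 and 0.93 to 2.85 within row 2. On the first scan day they were 1.03 to 2.64 and on the second 1.06 to 2.54. The same 11 members were higher on each scan day alone, where 4.61% and 3.67% of all genes were. They were also higher with the slide row as a block, where 3.59% of all genes were. Both days scanned the same arrays, so the days are not independent. Ifitm1, Isg20, Ifi203, Oasl2, Gbp2 and Xaf1 passed the threshold under every setting in which they were tested. With scramble array 1 left out 18 members were higher, and with mimic array 1, 2 or 3 left out 6, 7 and 7 were, against 11 with all arrays. The share of all genes called higher moved with these counts, to 13.4% without scramble array 1 and to 1.76%, 2.28% and 1.88% without mimic array 1, 2 and 3, against 4.92% with all arrays.

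**Figure D3:**
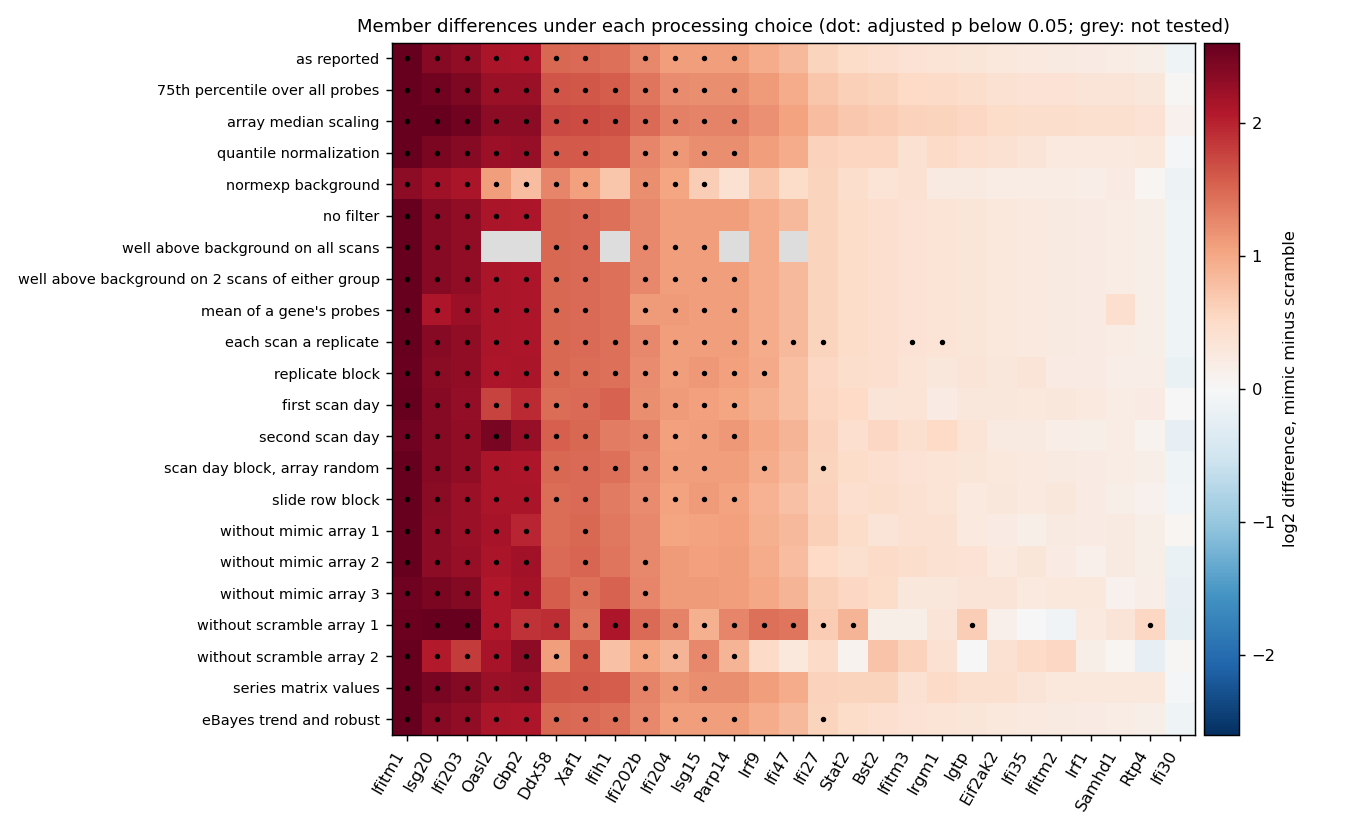
Log2 difference of mimic minus scramble for the 27 tested members (columns) under each processing choice (lines), on a colour scale from blue (lower with the mimic) to red (higher), with dots where the adjusted p was below 0.05 and grey where the member was not tested. Ifitm1, Isg20, Ifi203, Oasl2, Gbp2 and Xaf1 keep their dots in every line where they were tested, while Ddx58, Ifi204, Isg15 and Parp14 lose theirs whenever a mimic array is left out.

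Other genes of the pathway were taken from lists of ligands, receptors, signal transducers, sensors, negative regulators and further interferon-stimulated genes. The counts in this and the next 2 paragraphs stand beside those over all tested genes. Of these 4.92% were higher, 4.85% were lower and 27.1% had an unadjusted p below 0.05 (limma). No interferon gene could be tested. Of 11 ligand genes with a probe, 9 were detected on no scan, among them Ifnb1, the interferon that fibroblastic cells make first, which measured −7.06, −6.65 and −7.25 with the mimic, against −6.92 and −6.53 with the scramble. Of the receptor genes 1 of 5 tested was higher and none lower (limma; 1 higher and 0 lower at unadjusted p below 0.05). The log2 difference was 0.76 ± 0.16 (SE) for Ifnar2 (limma, adjusted p = 0.0338) and 0.011 for Ifnar1 (limma, adjusted p = 0.983). The Ifnar2 call was lost without any 1 of the mimic arrays (limma, adjusted p of 0.153, 0.116 and 0.135 without arrays 1, 2 and 3). It was also lost on the second scan day (0.0615), with a slide row block (0.0727), with array median scaling (0.219), without the filter (0.332) and in the series matrix (0.0754). Without scramble array 2 the Ifnar2 difference was 0.66. In all, the Ifnar2 call held in 12 of the 21 settings tried and was lost in 9. Of the signal transducers 0 of 4 passed (limma; 1 higher and 1 lower at unadjusted p below 0.05), with differences from −0.50 to 0.96.

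Of 11 tested sensing genes 1 was higher and none lower (limma; 2 higher and 0 lower at unadjusted p below 0.05). Nlrc5, the activator of MHC class I genes, had a log2 difference of 1.93 ± 0.23 (SE; limma, adjusted p = 0.00349) and was detected on all 6 mimic scans and 2 scramble scans. Mavs, the adaptor that relays RIG-I and MDA5 signals, had a log2 difference of 0.21 (limma, adjusted p = 0.469), and Irf3, the factor it activates, of 0.45 (limma, adjusted p = 0.251). The Irf3 difference was 0.75 (adjusted p = 0.0262) without scramble array 1 and 0.14 (adjusted p = 0.662) without scramble array 2. Of 5 tested negative regulators Socs3, an inhibitor of receptor-bound kinases, was higher by 0.96 ± 0.19 on the log2 scale (SE; limma, adjusted p = 0.0275), and none was lower (1 at unadjusted p below 0.05). The Socs3 call was lost without any 1 of the mimic arrays, with a slide row block, with array median scaling, without the filter and in the series matrix. The adjusted p was up to 0.237 over the settings tried (limma), and the Socs3 difference was 0.75 without scramble array 2. In all, the Socs3 call held in 13 of the 21 settings tried and was lost in 8.

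A further list of 40 interferon-stimulated genes that are not members had 22 tested, of which 5 were higher and none lower (limma; 10 higher and 1 lower at unadjusted p below 0.05). Over all tested genes 4.92% were higher and 27.1% had an unadjusted p below 0.05. The median log2 difference of the 22 was 0.33. In order of p the 5 were Uba7, Phf11d, Lgals3bp, Dtx3l and Parp10, the last named after its values were seen. Uba7, Phf11d and Dtx3l entered the test through their mimic scans alone. The log2 difference of Parp10 was 0.93, and its call was lost without any 1 mimic array (limma, adjusted p of 0.0973, 0.0751 and 0.0662 without arrays 1, 2 and 3). The Parp10 call was also lost with array median scaling (0.102) and without the filter (0.213). Uba7, the enzyme that activates Isg15 for conjugation, measured −3.77, −3.93 and −3.78 with the mimic, against −5.60 and −5.35 with the scramble. It was detected on all 6 mimic scans and no scramble scan, and was at least 2.22-fold higher with the mimic (limma, adjusted p = 0.00188). Phf11d was detected on 5 mimic scans and no scramble scan and was at least 1.86-fold higher (limma, adjusted p = 0.00754). Lgals3bp, a secreted glycoprotein, had a log2 difference of 1.18 ± 0.18 (SE; limma, adjusted p = 0.00919), a call lost without mimic array 1 (adjusted p = 0.0584) and without the filter (0.115). Dtx3l, a ubiquitin ligase that partners Parp9, was detected on 5 mimic scans and no scramble scan and was at least 1.22-fold higher (limma, adjusted p = 0.0145). The Dtx3l call was lost without mimic array 1 (limma, adjusted p = 0.0723) and without mimic array 3 (0.0656). It was also lost with normexp background correction (0.0936) and without the filter (0.122). Among 5 tested chemokine and antigen presentation genes Ccl5, a chemokine induced by Irf3 and interferon, was at least 2.07-fold higher with the mimic (limma, adjusted p = 0.00296) and none was lower (0 at unadjusted p below 0.05). With normexp background correction the log2 differences of Uba7, Phf11d and Ccl5 were 0.87, 0.86 and 0.85, each below its bound. That of Dtx3l, 0.55, was above its bound. Cxcl9, Cxcl10, Psmb8, Psmb9 and Tap1 were detected on no scan.

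**Figure D4:**
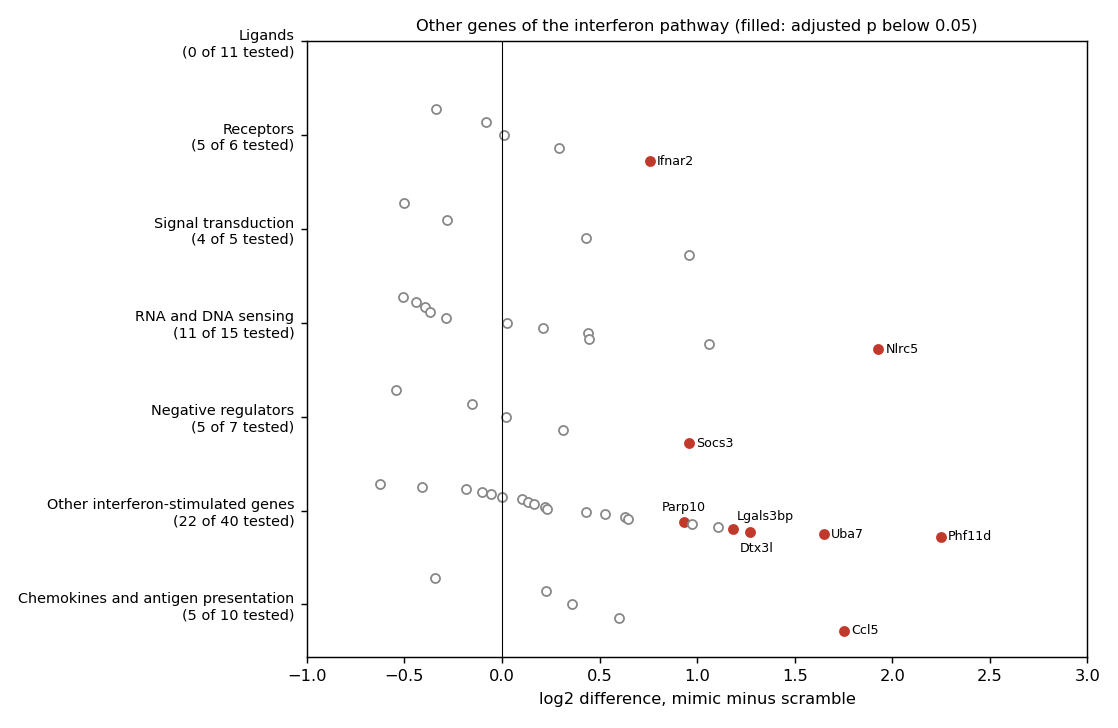
Log2 difference of mimic minus scramble for the tested genes of the other pathway lists, with 1 circle for each gene and filled circles where the adjusted p was below 0.05. All 9 filled circles lie right of 0, and the ligand line is empty because 0 of 11 ligand genes could be tested.

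Cell markers were measured on the same arrays. The summed linear level of 6 myoblast and muscle markers was 3.18 to 3.40 with the mimic and 11.7 to 18.1 with the scramble, where 1 is the 75th percentile. Of these 6, which also include Myf5 and Vcam1, 5 were tested, 4 were lower and 0 higher (limma), where 4.85% of all tested genes were lower. Myod1, Myog, Cdh15 and Des fell, with log2 differences of −3.38, −7.21, −2.11 and −1.45, and the highest difference among the 5 was 0.091. Myog was not detected on all scans, so signals below detection enter its −7.21. The Des call (limma, adjusted p = 0.0256) was lost without any 1 mimic array (adjusted p of 0.0941, 0.079 and 0.0796 without arrays 1, 2 and 3). It was also lost with array median scaling (0.0639), without the filter (0.138) and in the series matrix (0.0723). The summed level of 9 leukocyte markers was 2.80 to 3.15 with the mimic and 1.12 to 1.26 with the scramble, and without Cd68, a lysosomal glycoprotein gene with a log2 difference of 4.70, it was 1.0 to 1.22 with the mimic and 1.05 to 1.19 with the scramble. Of the 9 leukocyte markers 4 were tested and 1 was higher (limma; 2 higher and 0 lower at unadjusted p below 0.05). Ptprc, Lyz2, Tyrobp, Laptm5 and Adgre1, which define leukocytes and macrophages, were detected on no scan, as were Irf8 and Flt3 of dendritic cells and all 3 epithelial markers. The other 2 of 4 dendritic cell markers, Siglech and Bst2, had log2 differences of 0.42 and 0.44. All 4 summed to 0.742 to 1.31 with the mimic and 0.690 to 0.704 with the scramble. Of 3 fibroblast markers 2 were tested (−0.59 and −0.28), and of 3 endothelial markers 1 (0.25). None of these passed the test (limma), where 9.78% of all tested genes did. Fewer cells of a type and less RNA per cell cannot be told apart in such samples. The part of the fall in muscle markers in the interferon-stimulated genes was not tested.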

How the data were processed

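Labelled RNA of transfected C2C12 myoblasts was hybridised to 1-colour Agilent arrays, starting from 150 ng per the labels' protocols. The deposited scanner files hold spot intensities on a linear scale that Feature Extraction 12.0.0.7 had corrected for background, per the file headers. Version 10.7.3.1 is the one in the submitters' processing notes. The deposited series matrix holds the authors' processed intensity of the same scans and served as an alternative. Of the 59305 non-control spots, 25.4% to 34.6% of a scan were well above background, no more than 1 was saturated, and scans of the same array correlated at 0.986 to 0.991, against 0.957 to 0.991 for other pairs of the same group, so the correlations do not show whether the paired scans are of the same hybridisation.

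Flagged spots were left out, spots of a probe were averaged, and log2 of the processed signal was taken minus the scan's 75th percentile over the 12522 probes well above background on all 10 scans. Scans of an array were averaged. A probe counted as well above background on a scan when at least 0.5 of its spots did, was kept when this held on at least 4 scans, and the kept probe with the highest mean stood for its gene. The groups were set against each other with limma 3.58.1 (lmFit, then eBayes, under R 4.3.3). The fit had 2 residual degrees of freedom and a prior of 3.76. P-values were adjusted by Benjamini-Hochberg over 13677 genes, with a threshold of 0.05, and limits are 95% limits. The fit was tested on simulated data, with the outcome not reported here. Probe names were updated through RefSeq tables of GRCm38.p6, by accession for 28026 of 55681 probes, by symbol for 3418 and by synonym for 295, and 23942 kept the file's name. Promoter and miRNA sequences are RefSeq's, of the same assembly. No exon or UTR annotation of mm9 was used here.

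Members and lists were chosen with earlier results of these data known. All members are accounted for, with array values for those called or discussed. Of each other list, up to 4 called genes in order of p are named (Parp10 was added after its values were seen), and Ifnb1, Ifnar1, Ifnar2, Irf3 and Mavs whatever their values; the result of 1 further gene is not reported here. Scaling, background correction, filter, probe choice, scan averaging, blocks and left-out arrays were varied.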

Additional observations from a re-analysis of the deposited data

How the results depend on the processing

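Leaving out an array, scan day, slide row or filter gave no member lower with the mimic under any of the settings tried. Scaling on the 75th percentile of all probes moved the median of all genes by 0.13 on the log2 scale. It called 12 members, adding Ifih1, and 5.86% of all genes as higher. Scaling on the array median called 483 genes higher and 278 lower, against 673 and 664, with 12 members and a member median of 1.05. With no filter 200 genes were higher and 253 lower, 7 members were called, of which 6 were shared, and the member median was 0.38, with 34607 genes in the adjustment; Ddx58, Ifi202b, Ifi204, Isg15 and Parp14 were lost and Oasl1 was added. The authors' series matrix gave 325 genes higher and 327 lower, 9 members, without Ddx58 and Parp14, and a median of 0.58. The median was 0.48 with normexp background correction, which lost Parp14, 0.46 over members detected on all scans and 1.02 when each probe stood on its own, where 17 of 34 member probes were called. Of all 17455 probes 4.38% were called higher there, and the 34 include several probes of the same gene. With each scan as a replicate 2139 genes were higher and 2578 lower, with 17 members. With scan day as a fixed block and a random array effect 979 genes were higher (7.16%) and 1018 lower, and 13 members were higher, without Parp14. With an array left out, genes higher ranged over 241 to 1837, genes lower over 292 to 2215, members over 6 to 18 and the median over 0.61 to 0.92. The replicate numbers were not taken as pairs: same-numbered scans deviated together at r of −0.28 to 0.19 over 4 pairs and 0 correlated best with its own number. With a replicate block 1133 genes were higher and 1241 lower, and 13 members were higher, adding Ifih1 and Irf9. Signs turned in uncalled genes. Ifi30 (−0.11) was 0.023 with all-probe scaling, 0.10 with the array median, and −0.26 to 0.051 with an array left out. Leaving out an array gave −0.010 to 0.50 for Ifi35, −0.082 to 0.55 for Ifitm2 and −0.21 to 0.53 for Rtp4. Ifnar1 (0.011) was −0.016 with normexp, −0.033 with a replicate block, −0.035 on the first day and −0.032 with a slide row block, and between −0.35 and 0.37 with an array left out. The cause of these shifts was not tested. A signal near background limits the differences that these arrays can show.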
